A study of Homo sapiens with 6 samples.

Results

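The BCL2 family of apoptosis regulators was followed in U87 cells after knockdown of PRMT6. The 10 genes were chosen by name (BCL2, BCL2L1, BCL2L2, MCL1, BAX, BAK1, BBC3, PMAIP1, BCL2L11 and BID), out of 60612 genes in the table, and all 10 had enough counts to be tested. U87, a cell line from a human glioblastoma, is widely used as a model of that tumour. Its cells received lentivirus with a scramble shRNA (NC, 3 libraries) or with an shRNA against PRMT6 (shPRMT6, 3 libraries), so that both groups share the line, the virus and polybrene. PRMT6 is an enzyme that methylates arginine residues of histones and other proteins. The labels do not name the PRMT6 shRNA used nor the time from infection to harvest. The study calls the replicates independent, but all come from 1 cell line, and p-values measure the spread between these libraries.

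BCL2 family proteins decide whether the outer mitochondrial membrane stays intact. BCL2, BCL-XL (the main product of BCL2L1), BCL-W (BCL2L2) and MCL1 hold the pore-forming proteins BAX and BAK (BAK1) in check, and the BH3-only proteins PUMA (BBC3), NOXA (PMAIP1), BIM (BCL2L11) and BID relieve that restraint or activate BAX and BAK directly. Once pores form, cytochrome c leaves the mitochondria and caspases are activated. In glioma cells, BCL-XL and MCL1 are the members most often studied as guards of survival.

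The members that changed were anti-apoptotic ones, and they moved in opposite directions. BCL2L1 rose 1.88-fold in shPRMT6 and BCL2 fell to 30.1% of its NC level. BCL2L2 passed the test as lower, but 1 NC library was as low as the shPRMT6 libraries. Neither BAX nor BAK1 nor any of the 4 BH3-only genes passed the test. In all, 3 of the 10 members had an adjusted p under 0.05 by the edgeR quasi-likelihood test (Benjamini-Hochberg adjustment over all genes tested), beside 18.6% of the 18106 genes tested. Of these members, 1 was higher and 2 were lower in shPRMT6, where 9.51% of all genes tested were higher and 9.06% were lower. The median log2 fold change of the members was -0.08 and that of all genes tested was -0.01.

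The start-site windows of BCL2, BCL2L1 and BAX are shown. Of the members with windows, these had the smallest p in the edgeR fit, though BAX was not called. BCL2L1 also has a pair of listed starts that differ in sequence. The windows run from 250 bases before to 50 bases after a start and come from RefSeq on GRCh38.p14, where 8 of the 10 members had entries (13 windows). BCL2L2 and MCL1 had none. Capitals mark matches, on either strand, to 9 motifs. Among these were the GC box, with the letters GGGCGG, the CCAAT box and the TATA box, searched for as TATAAA. The others were the E-box, read here as CACGTG only, the STAT site TTCNNNGAA, the AP-1 site with the letters TGANTCA, the E2F site as either of TTTGGCGC and TTTCCCGC, the cyclic AMP response element TGACGTCA and an NF-kB site.
BCL2 (chr18:63319720-63320019, minus strand): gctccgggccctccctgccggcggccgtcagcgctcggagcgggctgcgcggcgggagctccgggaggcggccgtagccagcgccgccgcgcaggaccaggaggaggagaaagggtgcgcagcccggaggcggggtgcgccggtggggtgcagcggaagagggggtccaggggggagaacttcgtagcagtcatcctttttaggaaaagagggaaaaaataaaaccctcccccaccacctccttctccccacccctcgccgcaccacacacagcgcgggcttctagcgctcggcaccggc
BCL2L1, upstream start (chr20:31723914-31724213, minus strand): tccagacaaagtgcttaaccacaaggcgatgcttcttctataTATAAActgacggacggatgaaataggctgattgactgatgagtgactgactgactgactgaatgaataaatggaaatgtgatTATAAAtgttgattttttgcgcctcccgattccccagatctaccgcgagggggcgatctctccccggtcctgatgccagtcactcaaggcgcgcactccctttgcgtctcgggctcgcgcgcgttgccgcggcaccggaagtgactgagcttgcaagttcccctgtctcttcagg
BCL2L1, downstream start (chr20:31722819-31723118, minus strand): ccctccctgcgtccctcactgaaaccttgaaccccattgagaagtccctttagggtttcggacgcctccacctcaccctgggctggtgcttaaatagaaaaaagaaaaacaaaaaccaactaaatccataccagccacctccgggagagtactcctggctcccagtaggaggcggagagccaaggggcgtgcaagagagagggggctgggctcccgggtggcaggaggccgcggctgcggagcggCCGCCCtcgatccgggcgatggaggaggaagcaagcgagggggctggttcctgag
BAX (chr19:48954625-48954924, plus strand): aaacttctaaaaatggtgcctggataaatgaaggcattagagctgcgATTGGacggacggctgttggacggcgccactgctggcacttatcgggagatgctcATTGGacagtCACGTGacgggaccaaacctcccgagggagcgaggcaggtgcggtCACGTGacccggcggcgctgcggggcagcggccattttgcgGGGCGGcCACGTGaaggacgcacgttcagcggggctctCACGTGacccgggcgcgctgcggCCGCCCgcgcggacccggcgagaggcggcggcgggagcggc

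The BCL2 window held no match to any of the 9 motifs, at 70.7% G and C. The BCL2L1 windows differed from each other. The upstream one held 2 matches to TATAAA, both more than 50 bases before the start, at 52.0% G and C. Whether either match acts as a TATA box was not tested. The downstream one held 1 GC box at 61.3% G and C. The BAX window held 4 E-boxes, 2 GC boxes and 2 CCAAT boxes, and no match overlapped another there. Among all 35116 windows of the same length, 45.0% held a GC box, 34.6% a CCAAT box, 11.5% a TATA box and 7.26% an E-box. The STAT site was in 7.66% of all windows, the AP-1 site in 7.71%, an E2F site in 2.27%, the cyclic AMP response element in 1.85% and an NF-kB site in 5.91%. Of these last 5 motifs, the windows of the 8 members held 1 match, an AP-1 site in BBC3. The windows of PMAIP1 and BCL2L11, which were not called, held 4 and 3 GC boxes. A match in these windows is a description of sequence, and the libraries do not show which start was used.

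The libraries held 56388161 to 75887696 counts. PRMT6 itself, the targeted gene, had 9.33, 7.97 and 7.19 CPM (counts scaled to the size of each library, with TMM factors) in NC 1 to 3 and 3.57, 4.58 and 5.24 in shPRMT6 1 to 3. The groups did not overlap, and 54.7% of the NC level remained (log2 fold change -0.87 ± 0.19, SE, edgeR adjusted p = 0.0225). This call was lost without NC 1 (adjusted p = 0.0613), shPRMT6 1 (0.0588) or shPRMT6 2 (0.0713). It was also lost with the replicate number as a block (0.0803) and by limma on log2(FPKM + 1) without a filter (0.0578). In 10 of 15 alternative fits it was kept. VIM and CD44 were abundant, while the glial genes GFAP and S100B were near or at 0. NES had 5.74 to 6.94 FPKM and OLIG2 0.546 to 0.829 FPKM, and SOX2 had at most 26 counts, with 0 in 2 libraries. The 9p21 genes CDKN2A and CDKN2B had at most 4 counts in any library, and MTAP had at most 33. Of the other cell types' markers, CD3E was at 0 in all 6 libraries and PTPRC had at most 4 counts. CD68 was present at 56.4 to 124 FPKM and the neuronal gene SNAP25 at 4.42 to 5.15 FPKM, both with overlapping groups. The neuronal gene RBFOX3 had at most 36 counts and the endothelial gene CDH5 at most 4. The endothelial gene PECAM1 had 159 to 219 counts in NC and 248 to 331 in shPRMT6, without overlap in CPM, and was not called (log2 fold change 0.70 ± 0.20, SE, edgeR adjusted p = 0.0544). Where 18.6% of all genes tested were called, EGFR was the 1 glial and glioma marker called of 7 tested. CDH1, at under 1 CPM, was called among the 2 epithelial markers, and both EGFR and CDH1 were lower in shPRMT6. The part of such differences in the results for the members was not tested.

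The main product of BCL2L1, BCL-XL, binds BAX, BAK and BH3-only proteins at the mitochondrial membrane. The gene has 9 annotated protein-coding transcripts, and counts by gene do not show which product changed. BCL2L1 had 81.8, 67.9 and 86.1 CPM in NC 1 to 3 and 155, 149 and 141 CPM in shPRMT6 1 to 3. Every shPRMT6 library was above every NC library, and the means were 78.6 ± 9.51 and 148 ± 7.15 CPM (SD, n = 3 each). The log2 fold change was 0.91 ± 0.10 (SE, 95% interval 0.67 to 1.15, edgeR adjusted p = 0.00237), and by p the gene stood at place 415 of 18106. The adjusted p stayed under 0.05 in all 16 alternative fits, with log2 fold changes from 0.82 to 0.98. At the threshold of the study's methods, which asks for an absolute log2 fold change above 1, BCL2L1 was not called. BCL2L1 lies on chr20:31664452-31723989 (GRCh38, GENCODE 29, minus strand), and 43.0% of its exon bases are shared with ABALON, an RNA gene on the other strand. Whether the counting used strand is not given in the sources used here. ABALON had 134 to 204 counts in NC and 211 to 358 in shPRMT6, where BCL2L1 had 4576 to 5376 and 9143 to 9866. The difference of ABALON was not called (log2 fold change 0.62 ± 0.25, SE, edgeR adjusted p = 0.145). Adding both genes' counts left BCL2L1 at 0.90 on the log2 scale (adjusted p = 0.00238). With so few ABALON counts the sum could hardly differ, and it cannot show how reads in the shared bases were counted.

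BCL2, the founding member of the family, was the least abundant of the 10 in shPRMT6. It had 4.52, 2.75 and 4.98 CPM in NC 1 to 3, from 253, 209 and 311 counts, and 1.12, 1.45 and 1.12 CPM in shPRMT6 1 to 3, from 71, 89 and 76 counts. All 3 knockdown libraries lay below the lowest NC library, NC 2. The log2 fold change was -1.73 ± 0.28 (SE, 95% interval -2.39 to -1.07, edgeR adjusted p = 0.00807). Its adjusted p stayed under 0.05 in all 13 alternative fits that could test it, with a highest value of 0.0490 for limma on log2(FPKM + 1) without a filter, a scale on which low genes are pulled together and the log2 difference was -0.25. Without NC 2 the log2 fold change was -1.95. BCL2 spans chr18:63123346-63320128 on the minus strand, with 11765 exon bases, the longest exon set of the 10 members. No 75-base stretch of its transcripts occurs in another gene's transcripts.

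BCL2L2 encodes BCL-W, a close relative of BCL-XL. Its counts were 3125, 4367 and 268 in NC 1 to 3 and 346, 171 and 193 in shPRMT6 1 to 3, or 55.9, 57.4 and 4.29 CPM against 5.43, 2.78 and 2.85 CPM. NC 1 and NC 2 were high, NC 3 lay within the range of the shPRMT6 libraries, and the groups overlapped. The log2 fold change was -3.41 ± 0.91 (SE, 95% interval -5.59 to -1.23, edgeR adjusted p = 0.0457). It was 1 of 4 genes with overlapping groups among the 3362 genes called. The adjusted p was 0.05 or more in 11 of 16 alternative fits (highest adjusted p = 0.231), and the call was lost without NC 1, NC 2 or any 1 of the shPRMT6 libraries (adjusted p from 0.0971 to 0.141). Without NC 3 the log2 fold change was -3.94 (adjusted p = 0.00592).

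BCL2L2 lies on chr14:23298790-23311759 on the plus strand, where a readthrough gene, BCL2L2-PABPN1, runs from it into PABPN1 on the same strand and shares 813 of its 4189 exon bases. Of the 75-base stretches of BCL2L2 transcripts, 17.3% also occur in the readthrough gene, so a stretch of that length does not always tell these genes apart. BCL2L2-PABPN1 had 133, 129 and 143 counts in NC 1 to 3 and 338, 335 and 282 in shPRMT6 1 to 3. Unlike BCL2L2, it was even within each group and NC 3 did not stand apart. It rose by 1.23 ± 0.20 on the log2 scale (SE, edgeR adjusted p = 0.00913). PABPN1, which encodes a poly(A)-binding protein, had 97.5 to 110 CPM in NC and 81.7 to 92.1 in shPRMT6, and was not called (log2 fold change -0.22, adjusted p = 0.0975). With the counts of BCL2L2 and the readthrough gene added up, the log2 fold change was -2.25 and not called (adjusted p = 0.0835). The plot of these 3 genes shows the split of the NC libraries in BCL2L2 alone. Its cause was not tested.

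**Figure D1:**
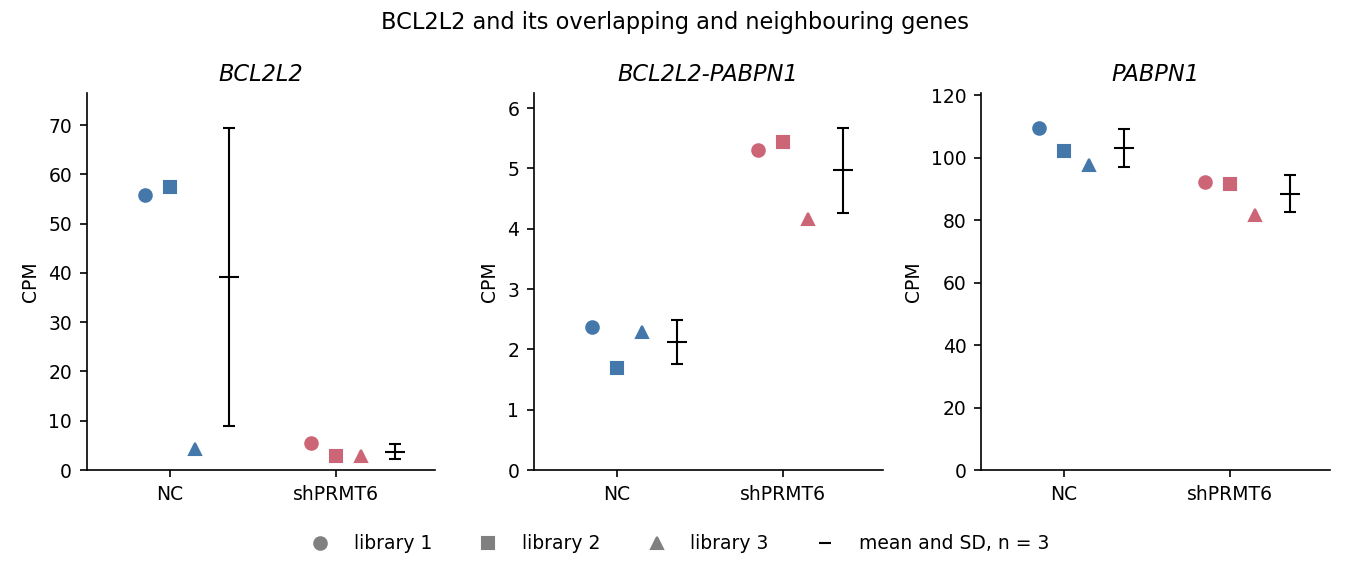
CPM of BCL2L2, the readthrough gene BCL2L2-PABPN1 and PABPN1 in each library (vertical axes, linear, from 0), by group (horizontal axes). Symbols are libraries 1 to 3 and bars are mean and SD (n = 3). NC 3 has 4.29 CPM of BCL2L2 beside 55.9 and 57.4 in NC 1 and NC 2, while BCL2L2-PABPN1 is higher in all 3 shPRMT6 libraries.

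MCL1, a short-lived anti-apoptotic protein whose transcript was the most abundant of the 10, differed little. It had 525, 541 and 615 CPM in NC 1 to 3 and 581, 557 and 584 in shPRMT6 1 to 3, and the groups overlapped. The log2 fold change was 0.03 ± 0.07 (SE), and its 95% interval, -0.14 to 0.20, leaves out changes as large as that of BCL2L1 (edgeR adjusted p = 0.789). MCL1 is a compact gene, at chr1:150574551-150579738 on the minus strand, and 4371 of its 5188 bases are exonic.

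The pore-forming genes did not pass the test. BAX, whose protein moves from the cytosol to the mitochondria on activation, had 72.3, 52.3 and 68.5 CPM in NC 1 to 3 and 51.0, 46.9 and 49.3 in shPRMT6 1 to 3. The groups did not overlap, but NC 2 was close to shPRMT6 1. The log2 fold change was -0.39 ± 0.13 (SE, 95% interval -0.69 to -0.086, edgeR adjusted p = 0.0815). DESeq2 called it (adjusted p = 0.0105), as did the edgeR fit without NC 2 (log2 fold change -0.52, adjusted p = 0.00931), and the other 13 alternatives did not. BAX lies on chr19:48954815-48961798 on the plus strand and BAK1 on chr6:33572547-33580293 on the minus strand. Of the 75-base stretches of BAK1 transcripts, 7.45% also occur in the pseudogene BAK1P1, and none of those of BAX occur in another gene. BAK1, whose protein sits in the mitochondrial membrane, had 21.42, 21.04 and 22.09 CPM in NC 1 to 3 and 20.04, 19.66 and 20.79 in shPRMT6 1 to 3. These small differences went one way without overlap, and the log2 fold change was -0.09 ± 0.08 (SE, edgeR adjusted p = 0.461). BCL2, BCL2L1, BAX and BAK1 were thus the 4 members of 10 whose groups did not overlap, beside 40.2% of all genes tested. NC 2 was the lowest NC library for 6 of the 10 members, BCL2, BCL2L1, BAX and BAK1 among them, and its part in the differences was not tested beyond the values given without it.

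None of the 4 BH3-only genes passed the test. BBC3 (PUMA), which binds all anti-apoptotic members, had 3.51, 1.99 and 3.40 CPM in NC 1 to 3 and 1.99, 2.58 and 1.33 in shPRMT6 1 to 3. The groups overlapped and the interval was wide (log2 fold change -0.59 ± 0.33, SE, 95% interval -1.38 to 0.20, edgeR adjusted p = 0.270). PMAIP1 (NOXA), which binds mainly MCL1, had 34.9, 40.5 and 39.1 CPM against 37.4, 36.1 and 36.2. Its log2 fold change was -0.06 ± 0.08 (SE, 95% interval -0.26 to 0.13, adjusted p = 0.662). BCL2L11 (BIM) had 1.70, 2.33 and 3.51 CPM in NC and 2.62, 2.84 and 1.86 in shPRMT6, with overlapping groups (log2 fold change -0.04, 95% interval -0.79 to 0.71, adjusted p = 0.945). Both BBC3 and BCL2L11 were under 4 CPM in every library, and their intervals are too wide to show that they did not differ. BCL2L11 shares 10.9% of its exon bases with MIR4435-2HG on the other strand, which had 1579 to 2462 counts a library. BID, which caspase 8 cuts into its active form, had 54.3, 44.7 and 49.6 CPM in NC and 51.8, 49.2 and 47.5 in shPRMT6. Its log2 fold change was -0.00059, with a 95% interval from -0.22 to 0.22 (adjusted p = 0.997). By position, BBC3 lies on chr19:47220822-47232766 (minus strand), PMAIP1 on chr18:59899948-59904306 (plus), BCL2L11 on chr2:111119378-111168447 (plus) and BID on chr22:17734138-17774770 (minus). PMAIP1 and BCL2 are on the same chromosome, and only BCL2 was called.

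**Figure D2:**
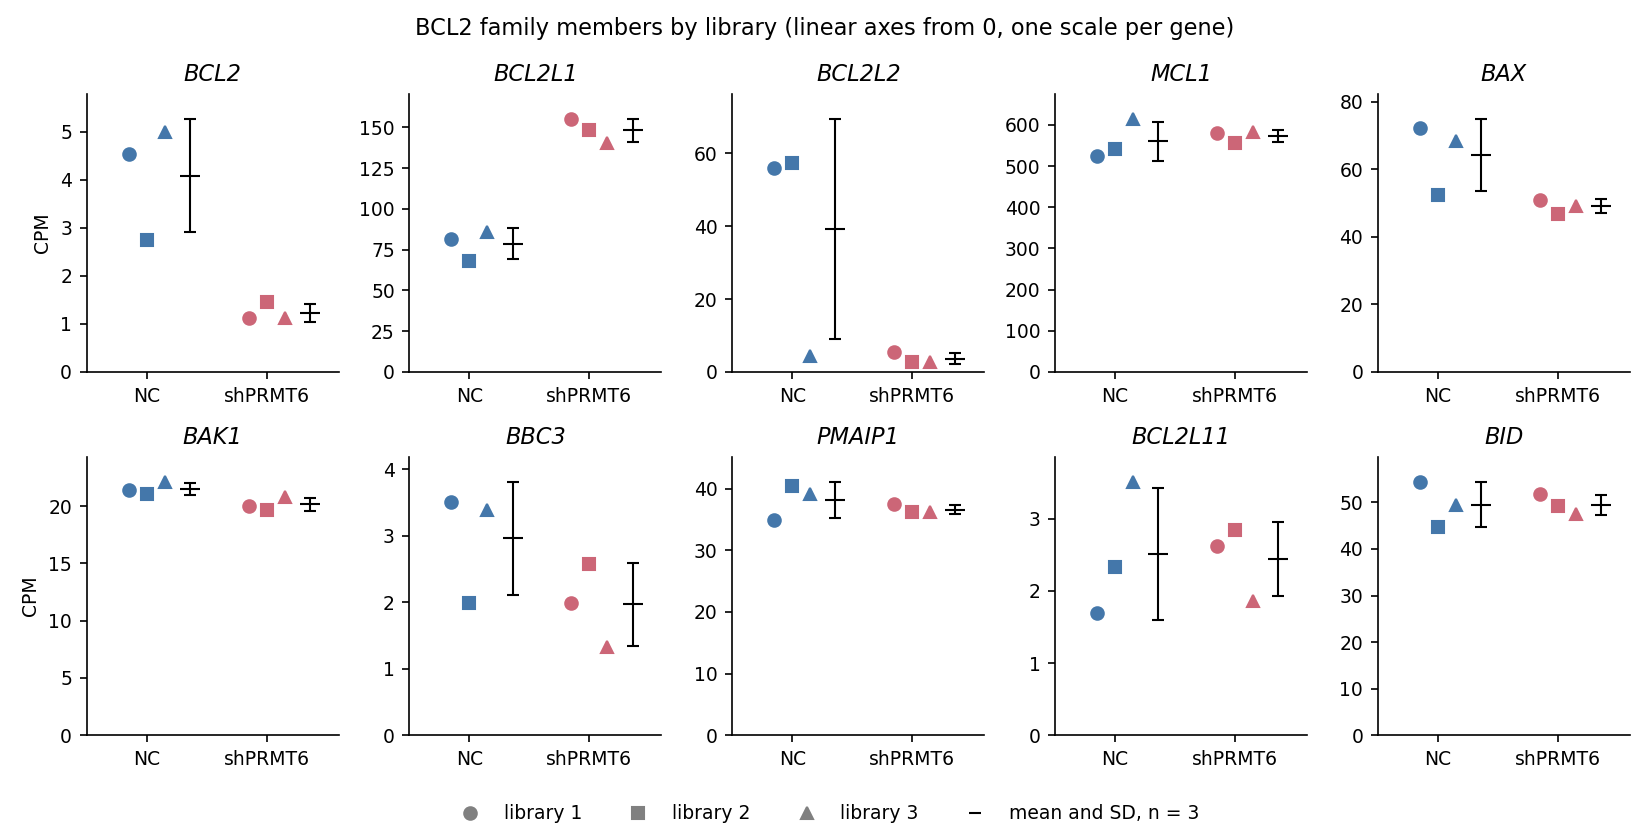
CPM of the 10 members in each library (vertical axes, linear, from 0, scaled per gene), by group (horizontal axes). Symbols are libraries 1 to 3 and bars are mean and SD (n = 3). BCL2L1 is higher and BCL2 lower in all 3 shPRMT6 libraries, BCL2L2 is high in NC 1 and NC 2 only, and MCL1, PMAIP1 and BID overlap between groups.

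**Figure D3:**
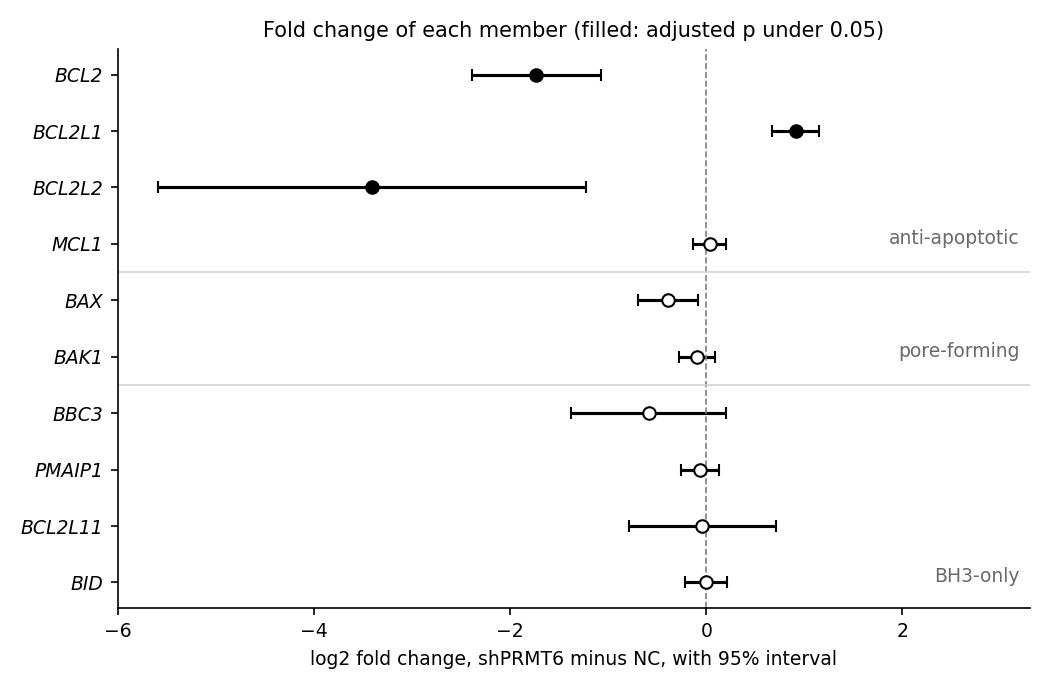
Log2 fold change of each member, shPRMT6 minus NC (horizontal axis), with its 95% interval from the edgeR fit, one row per gene grouped by role, and filled points have an adjusted p under 0.05. BCL2L1 lies at 0.91, BCL2 at -1.73 and BCL2L2 at -3.41 with the widest interval, and the 7 other members are not called.

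Levels can be set side by side between genes as FPKM, which divide by a length for each gene. That length is not given in the sources used here, and the order depends on it. For BAX the FPKM implied about 3067 bases, beside 2587 exon bases over all 13 of its annotated transcripts. The implied length exceeded the exon bases in similar proportion for all 10 members. It was 5175 beside 4371 for MCL1, 3925 beside 3314 for BCL2L1, 2589 beside 2235 for PMAIP1 and 3827 beside 3180 for BBC3. A factor common to all members would leave their order and ratios unchanged. In NC the order by mean FPKM was MCL1 (108 ± 10.3, SD, n = 3), BAX (20.9 ± 3.42), BCL2L1 (20.0 ± 2.48), PMAIP1 (14.7), BID (9.42), BAK1 (8.18), BCL2L2 (7.99 ± 6.16), BBC3 (0.774), BCL2L11 (0.315) and BCL2 (0.291 ± 0.084). Between neighbours in the order, BAX and BCL2L1 overlapped across the NC libraries, as did BAK1 with BCL2L2, BCL2L2 with BBC3, and BCL2L11 with BCL2. BCL2L2, at 0.879 to 11.8 FPKM in NC, also overlapped BID (8.50 to 10.2). In shPRMT6, BCL2L1 (37.8 ± 1.78) stood alone at the second place below MCL1 (111 ± 2.97) and above BAX (16.0 ± 0.69). BCL2 (0.0864 ± 0.014) was the lowest there without overlap, and BCL2L2, BBC3 and BCL2L11 overlapped with their neighbours in the order.

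Some ratios between members separated the groups, and others did not. The ratio of BCL2L1 to MCL1 FPKM was 0.206, 0.165 and 0.185 in NC 1 to 3 and 0.352, 0.352 and 0.318 in shPRMT6 1 to 3. For BAX to BCL2L1 it was 1.13, 0.986 and 1.02 in NC and 0.422, 0.404 and 0.448 in shPRMT6. By FPKM, BAX and BCL2L1 were thus near parity in NC, and in shPRMT6 BCL2L1 exceeded BAX in all 3 libraries. The ratio of BAX to BCL2 went the other way. It was 73.2, 86.5 and 62.7 in NC 1 to 3 and 214, 150 and 203 in shPRMT6 1 to 3. The 4 anti-apoptotic genes summed to 132, 133 and 143 FPKM in NC and 153, 146 and 150 in shPRMT6. Of that sum, BCL2L1 made up 14.6% ± 1.49 in NC and 25.2% ± 1.07 in shPRMT6 (SD, n = 3), and BCL2 0.213% and 0.0579%. BAX and BAK1 together had 31.3, 25.0 and 31.0 FPKM in NC and 24.3, 22.8 and 24.1 in shPRMT6, and the 4 BH3-only genes 24.6 to 26.0 and 23.7 to 25.2. The ratios of BCL2L1 to MCL1, of BAX to BCL2L1 and of BAX to BCL2 did not overlap between groups. Neither did the anti-apoptotic and pore-forming sums. The BH3-only sums overlapped, as did the ratio of BAX to BAK1, which was 2.89, 2.12 and 2.65 in NC 1 to 3 and 2.18, 2.04 and 2.02 in shPRMT6 1 to 3. The share of BCL2L2 in the anti-apoptotic sum overlapped too, since it was 0.615% in NC 3 and 0.386% to 0.726% in shPRMT6. With 3 libraries against 3, an exact permutation test cannot give a two-sided p below 0.1, so these ratios carry no call. FPKM describe RNA, take all transcripts of a gene together and rest on the length used for each gene. Protein amounts were not measured in these files.

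**Figure D4:**
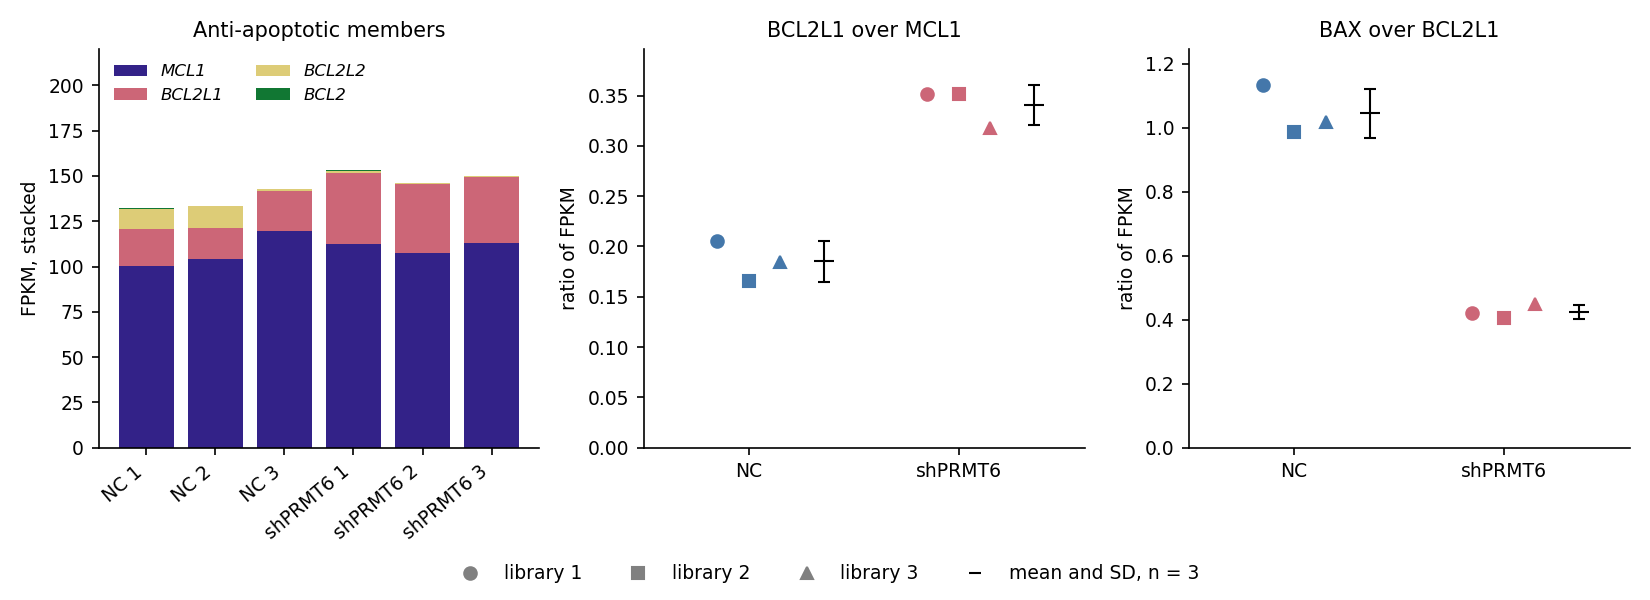
Left, FPKM of the 4 anti-apoptotic members stacked for each library (vertical axis, from 0). Middle and right, ratios of FPKM by group, with symbols for libraries 1 to 3 and bars for mean and SD (n = 3). BCL2L1 takes 25.2% of the stack in shPRMT6 beside 14.6% in NC, and the BAX to BCL2L1 ratio lies between 0.404 and 0.448 in shPRMT6 and between 0.986 and 1.13 in NC.

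The genes whose profile over the 6 libraries was most like that of BCL2L1, the member with the smallest p, were TNFAIP8L3, RGS19 and GRB10. Their root mean square differences from it in centred log2 CPM were 0.045, 0.052 and 0.053, among 10044 genes whose average log2 CPM reached 3. GRB10, an adaptor of insulin and growth factor receptors, had 105 to 122 CPM in NC and 202 to 213 in shPRMT6. With 6 libraries in 2 groups, likeness mostly reflects a similar fold change.

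Of the 13 other BCL2 family genes, 7 were tested, and 2 were lower and none higher. Among all genes tested, 18.6% were called. BCL2L12 fell by 0.87 ± 0.14 on the log2 scale (SE, edgeR adjusted p = 0.00838), from 28.7 ± 4.72 to 15.7 ± 1.15 CPM (SD, n = 3). BNIP3, a mitophagy receptor, fell by 0.28 ± 0.05 (SE, adjusted p = 0.0141), a call lost without shPRMT6 2 (adjusted p = 0.0662) or shPRMT6 3 (0.0645). The BH3-only gene BAD had 36.5 ± 9.50 CPM in NC and 32.9 ± 5.80 in shPRMT6 and was not called, and the remaining tested genes, BCL2A1, BMF, BCL2L13 and BNIP3L, were not called either. BIK, HRK and BCL2L14 had no counts in any library.

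Downstream of the pore, 3 of 19 genes of the apoptosome, caspases and their inhibitors were called, 2 higher and 1 lower. Such a count stands beside 18.6% of all genes tested. CYCS, which encodes cytochrome c, rose by 0.32 ± 0.05 on the log2 scale (SE, edgeR adjusted p = 0.00803), from 222 ± 7.38 to 278 ± 4.41 CPM (SD, n = 3). AIFM1, a mitochondrial flavoprotein, rose by 0.31 (adjusted p = 0.0183), which was lost without NC 3 or any 1 of the shPRMT6 libraries (adjusted p up to 0.0825). Its call was kept in 9 of 15 alternative fits. BIRC5, which encodes the mitotic protein survivin, fell by 0.61 ± 0.08 (SE, adjusted p = 0.00473), from 30.0 ± 1.09 to 19.6 ± 1.05 CPM. None of 6 caspase genes was called. Of 9 partners in the mitochondrial membrane, 1 was called, beside the same 18.6% of all genes tested. MTCH2, a receptor for the cut form of BID, had a log2 fold change of 0.22 (adjusted p = 0.0341), and the call was lost when any library other than NC 1 was left out (adjusted p from 0.0576 to 0.117). Of 15 alternative fits, 8 kept it.

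Transcription factors that act on BCL2 family genes were called in 5 of 12 tested, 2 higher and 3 lower, beside 18.6% of all genes tested. STAT3, a known activator of BCL2L1 and MCL1, rose by 0.83 ± 0.06 on the log2 scale (SE, edgeR adjusted p = 0.000822), from 57.3 ± 0.97 to 102 ± 4.98 CPM (SD, n = 3). JUN rose by 0.51 ± 0.05 (adjusted p = 0.00148). The NF-kB gene NFKB1 fell by 0.72 ± 0.08 (adjusted p = 0.00213). E2F1 fell by 0.62 ± 0.06 (adjusted p = 0.00199). ATF4 fell by 0.56 (adjusted p = 0.0202), a call lost without NC 3, shPRMT6 2 or shPRMT6 3 (adjusted p up to 0.0776). Of 15 alternative fits, 10 kept it.

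Of 7 tested genes for the turnover of MCL1, BIM and NOXA proteins, 1 was lower and 1 higher, beside 18.6% of all genes called. CDC20, an activator of the anaphase-promoting complex and the gene in the title of the study, fell by 1.30 ± 0.09 on the log2 scale (SE, edgeR adjusted p = 0.00058), from 166 ± 16.3 to 67.5 ± 2.44 CPM (SD, n = 3). BTRC, a ubiquitin ligase subunit, was higher by 0.28 (adjusted p = 0.0453), and this call was lost whichever of the 6 libraries was left out (adjusted p from 0.0636 to 0.157). Of 15 alternative fits, 6 kept it.

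**Figure D5:**
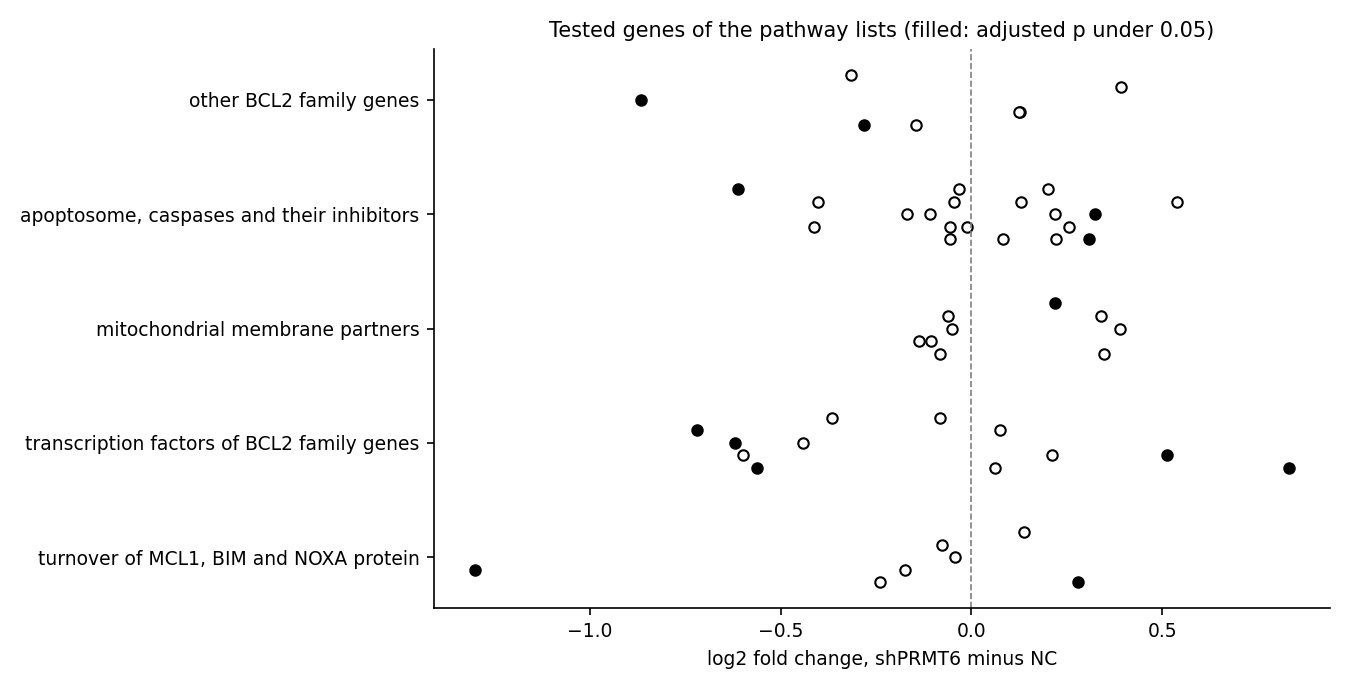
Log2 fold change, shPRMT6 minus NC (horizontal axis), of the tested genes reported here in 5 lists around the family (vertical axis, points are spread within a list to keep them apart), and filled points have an adjusted p under 0.05. STAT3 lies at 0.83 and CDC20 at -1.30.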

How the data were processed

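The 6 libraries (3 NC, 3 shPRMT6) hold RNA from U87. For each, the authors deposited unnormalized read counts by gene together with FPKM, where genes lacking counts carry the value 1e-04. The submitters' processing notes name HISAT2, HTSeq 0.13.5 and GRCh38. The use of strand, the annotation and the tool for FPKM are not given in the sources used here. The labels name Trizol and the NEBNext Ultra RNA kit, while the study's methods name another extraction kit. Of 60612 identifiers, 60401 were matched to a symbol.

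Counts were tested with edgeR 4.0.16 in R 4.3.3 (quasi-likelihood test, TMM, filter on low counts by group, Benjamini-Hochberg adjustment over the 18106 genes left, adjusted p under 0.05). CPM are TMM scaled. The fit was tested on simulated data. Alternatives were DESeq2 1.42.0, limma 3.58.1 on log2(FPKM + 1) and log2(FPKM + 0.1), other scaling, filters and thresholds, a replicate block, each library left out, and summed counts of overlapping genes, the last added after seeing the data. The members and lists were chosen with earlier results of these data known. The results of some list genes are not reported here and stay out of the counts. Named were all members, PRMT6, up to 8 called genes of each list by smallest p, and the 3 profiles nearest to the member with the smallest p. Depth was 56388161 to 75887696 counts a library. Replicates differed by more than counting error (chi-square divided by its degrees of freedom, 48.2 to 78.4), so none was counted as a duplicate. Gene positions and overlaps come from GENCODE 29, start windows from RefSeq. No protein sequences or genome sequence were used here.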

Additional observations from a re-analysis of the deposited data

How the results depend on the processing

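The number of genes called was 3362, and 5782 by DESeq2, 1858 with the replicate block, 1320 at an adjusted p under 0.01, 1072 at an unadjusted p under 0.05 with an absolute log2 fold change above 1, and 1755 to 3183 with 1 library left out. Of the members, 3 were called (1 higher, 2 lower), 4 by DESeq2 (3 lower), 2 with the replicate block, 2 at an adjusted p under 0.01, 2 at the unadjusted p with the fold threshold (0 higher, so BCL2L1 was lost), 2 to 3 with 1 library left out, and 1 (BCL2L1) of 7 tested by limma on FPKM with a mean of at least 1, at either pseudocount. The replicate numbers did not pair the libraries (correlations of same-numbered deviations -0.014, -0.053 and -0.026), so the block shows only what a shared number does.

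Directions turned for members near 0. MCL1 ranged from -0.014 to 0.10 with 1 library left out, BCL2L11 from -0.26 to 0.27 and BID from -0.070 to 0.068. BCL2L11 was at 0.0031 with the replicate block. BID was at 0.0041 by DESeq2, 0.0017 with at least 10 counts in every library, 0.0035 with at least 1 count in any, 0.0029 with the replicate block, 0.0096 by limma with a pseudocount of 1 with or without the filter, and 0.011 with 0.1. None of these was called. The 14 other genes named (PRMT6 and those of the lists) kept their direction in every alternative that tested them, and 8 kept an adjusted p under 0.05 in all of the fits. Of these 8, only CDC20 also had an absolute log2 fold change above 1. BCL2, BBC3 and BCL2L11 had no more than 311 counts a library, and the part of depth in their results was not tested.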
